A study of Rattus norvegicus with 6 samples.

Results

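The genes described here encode 3 vasoactive peptide systems of the vessel wall in primary rat brain microvascular endothelial cells (rBMECs). They are the endothelin genes Edn1, Ednra, Ednrb and Ece1, the angiotensin-converting enzyme gene Ace, and the adrenomedullin genes Adm, Calcrl, Ramp2 and Ramp3. The 9 genes were taken by symbol from the 33566 genes of the deposited count table, 1 row each, and 8 of them passed the count minimum of 10 reads summed over the 6 libraries. RNA was sequenced from 3 cultures treated with homocysteine (Hcy, a sulfur amino acid of the methionine cycle) and 3 given the vehicle (Veh), sterile water, each for 24 h. The labels give a dose of 100 μM Hcy and also name a prepared Hcy solution of 50 μM, a difference that could not be settled. All cells came from SD rats 18 to 22 days old, from the cerebral cortex by the labels and the forebrain by the study's methods, and were used after 1 passage in medium with endothelial growth supplements. The labels do not say whether the cultures came from separate isolations, so the p-values measure the spread between these libraries, which may be partly technical.

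Endothelin-1 is a potent vasoconstrictor peptide that endothelial cells make as a long precursor, and endothelin-converting enzyme 1 trims it to the active form. It acts on the type A receptor, found mainly on smooth muscle and pericytes, and on the type B receptor, which endothelial cells use to release relaxing factors and to clear the peptide. Adrenomedullin relaxes vessels and tightens the endothelial barrier through a receptor built from Calcrl and an accessory protein, Ramp2 or Ramp3. Angiotensin-converting enzyme, anchored on the luminal surface of endothelium, makes angiotensin II and breaks down bradykinin.

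None of these genes passed the edgeR test between Hcy and Veh. In culture the ligand genes Edn1 and Adm were abundant and lay above the receptor genes Ednrb, Ednra and Calcrl. The ligand mRNAs Edn1 and Adm differed little between the groups, with log2 fold changes of -0.01 and -0.05. Ace and Ramp2 were higher in all 3 Hcy libraries than in all 3 Veh libraries, with log2 fold changes of 0.50 and 0.44, but neither reached an adjusted p of 0.05 in the edgeR quasi-likelihood test. Both passed with DESeq2, and groups without overlap were found in 20.1% of all genes tested. Ednra was all but undetected.

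The libraries held 14024997 to 16764584 counted reads, so that 3 reads, taken as the floor of detection, corresponded to 0.178 to 0.215 CPM (read counts scaled to library size with TMM factors). This floor covers counting error only. Markers of endothelium were abundant, with Cdh5 at 1796 ± 231 CPM (SD, n = 3) and Vwf at 2288 ± 284 CPM (SD, n = 3) in Veh, whereas Slco1c1 and Mfsd2a, which mark brain endothelium in vivo, were at 1.97 ± 0.288 CPM and 4.18 ± 0.352 CPM (SD, n = 3). Other barrier genes were abundant in Veh, with Slc2a1 at 621 ± 14.2 CPM, Ocln at 165 ± 9.66 CPM and Slc16a1 at 129.7 ± 9.44 CPM (SD, n = 3). The summed level of the 16 endothelial markers with a row was 11258 to 11671 CPM in Hcy and 9887 to 11357 CPM in Veh. Of these 16 markers, 7 had a log2 fold change above 0 and 9 below, and the median over the list was -0.05. The summed level of 11 markers of pericytes and smooth muscle was 681 to 708 CPM in Hcy and 1124 to 1352 CPM in Veh, and nearly all of it came from Tagln, Acta2 and Cnn1, contractile genes that cultured endothelium can also express. These 3 were lower in Hcy, but 6 of the 11 had a log2 fold change above 0 and the median over the list was 0.44. Among them were the sparse pericyte genes Pdgfrb, with 30 to 54 reads in Hcy and 19 to 34 in Veh, Cspg4, with 9 to 16 and 3 to 5 reads, and Rgs5, with 5 to 9 and 1 to 4 reads, whereas Kcnj8 had 4 to 6 reads in Hcy and 7 to 13 in Veh. None of these 4 passed the adjusted p. Of 6 microglial markers, Cx3cr1, P2ry12 and Ptprc had 0 reads, while Tmem119 had 6 to 16, Aif1 2 to 10 and Csf1r 1 to 9, and their summed level was 0.862 to 1.37 CPM in Hcy and 1.37 to 1.87 CPM in Veh. The summed level of 5 fibroblast markers was 44.9 to 68.7 CPM in Hcy and 63.5 to 91.2 CPM in Veh. Col1a1 was lower without overlap (log2 fold change -0.52), and Col3a1 had a value of 0.47 (adjusted p = 0.264 and 0.363 from edgeR). Of 5 neuronal markers 1 was tested, Syt1, with 26 to 44 reads in Hcy and 17 to 23 in Veh. Its log2 fold change was 0.85 (adjusted p = 0.195 from edgeR). The astrocyte sums overlapped, at 0.716 to 1.01 CPM in Hcy and 0.415 to 1.66 CPM in Veh. So did the oligodendrocyte sums, at 10.6 to 12.2 CPM in Hcy and 11.2 to 11.3 CPM in Veh. Most of the oligodendrocyte sum came from Mog, with means of 9.87 CPM in Hcy and 9.89 CPM in Veh. In bulk RNA, fewer cells of a type and less RNA per cell cannot be told apart. On the first principal component (30.5% of variance), Hcy libraries lay at -18.8 to -17.8 and Veh libraries at 15.4 to 21.9. On the second (26.2%), Veh replicate 3 lay at 30.4, and the other Veh replicates at -15.9 and -19. Values without this library are therefore given for the refitted genes whose call it changed.

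The stretches before the annotated starts of Edn1, Adm and Ace are shown because these genes stand for the abundant ligands and for a gene whose Hcy and Veh libraries did not overlap. RefSeq windows, from 250 bases before to 50 bases after each start, were found in the GRCr8 build for 8 of the 9 genes, Ramp2 being the exception. Each stretch runs 5′ to 3′ on the gene's strand, from the first base of the window to shortly past a TATA-type match. Capitals mark the TATAA core of a TATA box, the GATAA core that GATA factors bind, and the CACCC core that Kruppel-like factors bind, each searched on both strands.

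Edn1 (chr17:22666778-22666937, minus strand): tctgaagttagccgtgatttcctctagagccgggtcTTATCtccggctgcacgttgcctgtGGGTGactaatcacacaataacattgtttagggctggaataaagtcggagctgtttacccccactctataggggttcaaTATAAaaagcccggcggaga

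Adm (chr1:174179950-174180174, plus strand): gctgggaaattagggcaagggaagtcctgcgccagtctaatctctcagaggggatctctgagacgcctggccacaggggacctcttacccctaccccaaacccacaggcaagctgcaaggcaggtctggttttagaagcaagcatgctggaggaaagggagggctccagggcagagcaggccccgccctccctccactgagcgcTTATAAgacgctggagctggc

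Ace (chr10:91409879-91410108, plus strand): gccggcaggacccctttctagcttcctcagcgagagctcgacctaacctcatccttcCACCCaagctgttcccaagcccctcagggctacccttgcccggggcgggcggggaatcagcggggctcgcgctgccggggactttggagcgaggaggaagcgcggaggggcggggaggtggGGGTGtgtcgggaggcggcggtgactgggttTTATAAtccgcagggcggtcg

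TATAA was found in the windows of Edn1, Adm and Ace and in none of the other 5, against 26.2% of all 33469 promoter windows on either strand. Relative to the annotated start it lay at -45 in Adm and -40 in Ace, but at -110 in Edn1, farther than a TATA box usually lies. In Adm and Ace the match reads the same on both strands, so that its 2 hits overlap. Edn1 and Calcrl held GATAA, which 26.5% of all windows hold. CACCC, present in 54.9% of all windows, occurred in Edn1, Ednra, Ece1, Ace, Calcrl and Ramp3. These matches describe letters only and show no binding. GRCr8 is not the build of the counts, for which the deposited table names none. The submitters' processing notes name mRatBN7.2, but positions on chromosome 1 of the table reach 282724300, beyond the end of that chromosome in mRatBN7.2, so the table lists positions of another build. Positions of genes below are given as the table lists them, with the build unknown.

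Levels were compared between genes as CPM per kilobase of the deposited gene length. Edn1 was the highest of the 9 genes, at 349 to 427 CPM per kilobase over the 6 libraries, and ranked 220 among the 14603 genes tested. Adm followed at 267 to 310, Ece1 at 138 to 171 and Ramp2 at 77.1 to 128 CPM per kilobase. Ramp3 lay at 23.8 to 29.4, Ace at 11.8 to 20.9, Calcrl at 6.28 to 8.58 and Ednrb at 2.92 to 6.13 CPM per kilobase. In this order no gene's range over the 6 libraries overlapped that of its neighbour, although Calcrl and Ednrb came close. Per kilobase, both ligands were thus above Ednrb, Ednra and Calcrl in every library. Among the same 14603 genes, Adm ranked 303, Ramp2 875, Ramp3 3040, Calcrl 6753 and Ednrb 8464. Calcrl was therefore low beside the ligands but not among all genes tested.

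**Figure D1:**
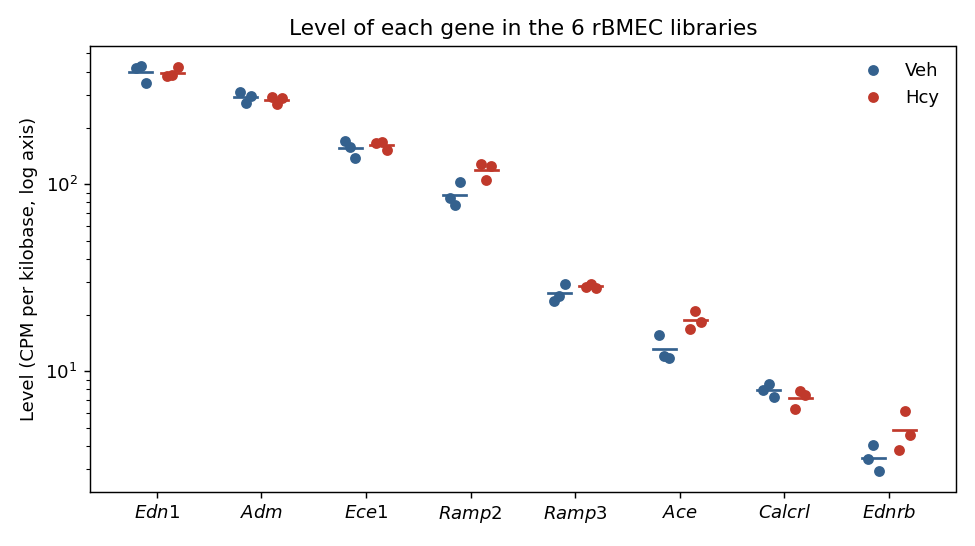
Level of 8 genes in each rBMEC library, in CPM per kilobase of gene length on a log axis, for Veh (blue) and Hcy (red), with a short line at each group mean (n = 3). Edn1, at 349 to 427 CPM per kilobase, and Adm, at 267 to 310, lie at the top and Ednrb, at 2.92 to 6.13, at the bottom, and Ednra, with 0 to 2 reads per library, is not drawn.

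Edn1 (ENSRNOG00000014361), the precursor gene of endothelin-1, is listed on chromosome 17 between 22137324 and 22143324, minus strand. It had 524, 534 and 587 CPM in Hcy replicates 1 to 3 and 580, 594 and 485 CPM in Veh replicates 1 to 3. The groups overlapped, and the lowest value was that of Veh replicate 3. The mean was 548 ± 33.9 CPM (SD) in Hcy against 553 ± 59.1 CPM in Veh (n = 3 per group). Between the groups, the fitted log2 difference was -0.01 (standard error 0.09, adjusted p = 0.976), with a 95% interval from -0.22 to 0.19. This interval, like those below, is not adjusted for the number of genes. Without Veh replicate 3 the log2 fold change was -0.10 (adjusted p = 0.389), and its sign turned in 4 of the 6 fits with a library omitted.

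Ece1 (ENSRNOG00000014241), the protease that releases active endothelin-1, is listed on chromosome 5 from 156215417 to 156318671. It had 778, 787 and 711 CPM in the Hcy libraries and 797, 738 and 642 CPM in the Veh libraries, which overlapped. Hcy minus Veh came to 0.06 log2 units (standard error 0.09, adjusted p = 0.834), with an interval from -0.14 to 0.26.

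The endothelin receptors were far scarcer. Ednrb (ENSRNOG00000010997), encoding the type B receptor, had 106, 182 and 153 reads in the Hcy libraries and 114, 127 and 84 reads in the Veh libraries. The mean was 9.65 ± 2.35 CPM (SD) in Hcy against 6.89 ± 1.14 CPM in Veh (n = 3 per group). Hcy replicate 1, at 7.61 CPM, lay below Veh replicate 2, at 8.09 CPM, so the groups overlapped. edgeR put the difference at 0.49 log2 units (standard error 0.21, adjusted p = 0.345), with an interval from 0.02 to 0.95. Leaving out a library moved it from 0.28 without Hcy replicate 2 to 0.63 without Hcy replicate 1. Ednrb is listed on chromosome 15 from 88006977 to 88036354, inside the interval of Mycbp2 on the same strand, which had 690 to 959 reads. Reads shared by both genes could have been left out or assigned to either, so the level of Ednrb is uncertain.

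Ednra (ENSRNOG00000012721), encoding the type A receptor and listed on chromosome 19 from 33928356 to 33991703, had 0, 1 and 0 reads in the Hcy libraries and 2, 0 and 1 reads in the Veh libraries. All 6 values were under the floor of 3 reads, so it was not tested and no fold change is given. A difference in Ednra was not detectable at this depth.

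Ace (ENSRNOG00000062101), listed on chromosome 10 from 94170766 to 94187822, had a log2 fold change close to those of Ednrb and Ramp2, and which of these genes had the highest changed with the library left out. It had 63.7, 78.8 and 68.8 CPM in Hcy replicates 1 to 3 and 58.8, 45.7 and 44.3 CPM in Veh replicates 1 to 3. Every Hcy library was above every Veh library, with Hcy replicate 1 and Veh replicate 1 closest to each other. The mean was 70.4 ± 7.67 CPM (SD) in Hcy against 49.6 ± 8.02 CPM in Veh (n = 3 per group). Between the groups, the fitted log2 difference was 0.50 (standard error 0.13, unadjusted p = 0.00298, adjusted p = 0.0887 from edgeR), with an interval from 0.22 to 0.79. Ace thus missed the threshold in this test. It passed with DESeq2 (adjusted p = 0.00633), in edgeR with no count filter (adjusted p = 0.0283) and without Veh replicate 1 (adjusted p = 0.0443), and without Veh replicate 3 its adjusted p was 0.0570. Over all alternatives the log2 fold change of Ace ran from 0.42 to 0.65 and the adjusted p from 0.00633 to 0.274.

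Adm (ENSRNOG00000027030), the precursor gene of adrenomedullin, is listed on chromosome 1 from 175445088 to 175447259. It had 407, 370 and 401 CPM in the Hcy libraries and 431, 377 and 408 CPM in the Veh libraries. The groups overlapped, and replicate 2 was the lowest of each. The mean was 393 ± 19.99 CPM (SD) in Hcy against 405 ± 26.8 CPM in Veh (n = 3 per group). Hcy minus Veh came to -0.05 log2 units (standard error 0.07, adjusted p = 0.864), with an interval from -0.22 to 0.12.

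Calcrl (ENSRNOG00000054695), the receptor that binds adrenomedullin together with an accessory protein, is listed on chromosome 3 from 71747956 to 71845232. It had 29.5, 36.7 and 34.97 CPM in Hcy and 37.6, 40.3 and 34.1 CPM in Veh, with overlap. edgeR put the difference at -0.15 log2 units (standard error 0.11, adjusted p = 0.636), with an interval from -0.39 to 0.10. With a library left out, this difference ran from -0.21 to -0.06.

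Ramp2 (ENSRNOG00000020415), the accessory protein that gives Calcrl its preference for adrenomedullin, is listed on chromosome 10 from 89166890 to 89168965. It had 107, 88.1 and 105 CPM in Hcy replicates 1 to 3 and 70.8, 64.7 and 86.4 CPM in Veh replicates 1 to 3. The groups did not overlap, but Hcy replicate 2 was only just above Veh replicate 3. The mean was 100.1 ± 10.4 CPM (SD) in Hcy against 74.0 ± 11.2 CPM in Veh (n = 3 per group). Between the groups, the fitted log2 difference was 0.44 (standard error 0.12, unadjusted p = 0.00581, adjusted p = 0.1254 from edgeR), with an interval from 0.16 to 0.71. Ramp2 passed with DESeq2 (adjusted p = 0.0177) and without Veh replicate 3 (log2 fold change 0.56, adjusted p = 0.00622 from edgeR). Its lowest log2 fold change was 0.35, without Veh replicate 2, and its highest adjusted p was 0.394, without Hcy replicate 3. Of 2 listed genes that overlap Ramp2, neither had more than 4 reads in a library.

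Ramp3 (ENSRNOG00000053766), the other accessory protein of the adrenomedullin receptor, is listed on chromosome 14 from 86922223 to 86939719. It had 34.5, 35.8 and 33.9 CPM in Hcy and 29.0, 31.0 and 35.9 CPM in Veh, with overlap through Veh replicate 3. Hcy minus Veh came to 0.12 log2 units (standard error 0.10, adjusted p = 0.678), with an interval from -0.10 to 0.34. With a library left out, this difference ran from 0.06 to 0.21.

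**Figure D2:**
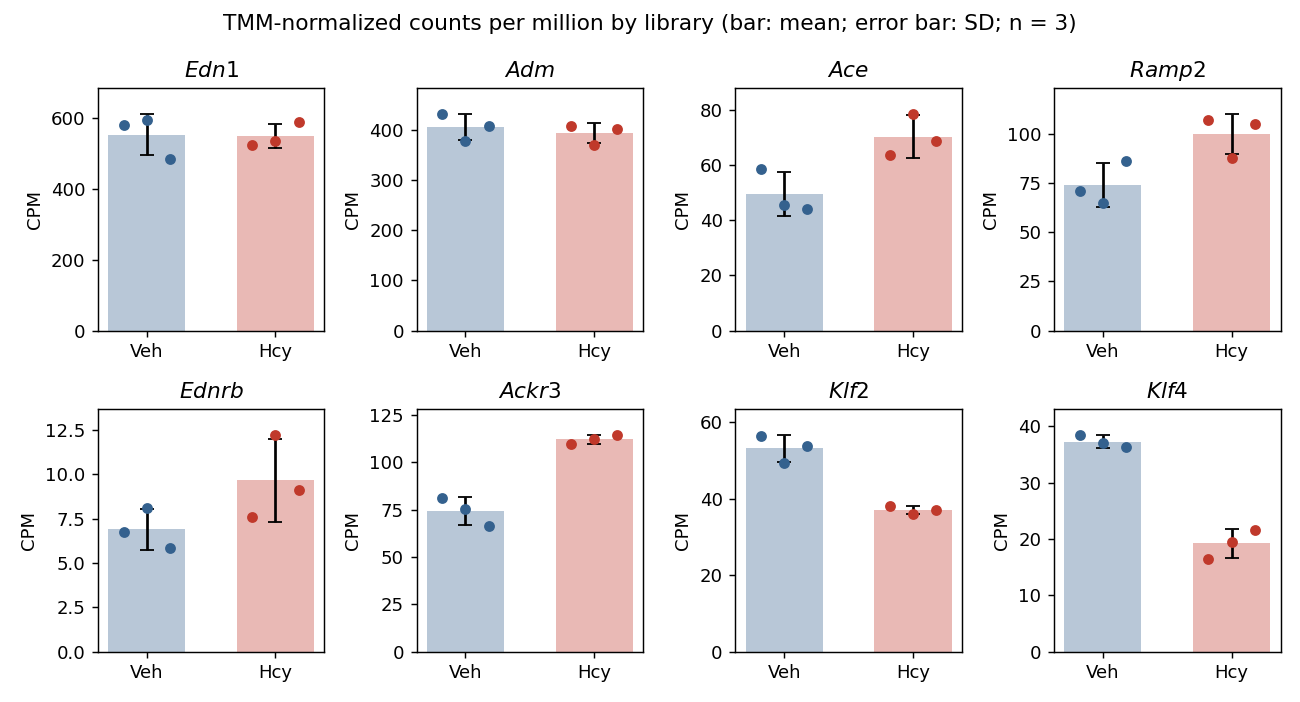
TMM-normalized CPM of 8 genes by library in Veh (blue) and Hcy (red), with bars at the mean, error bars of 1 SD and a point for each of 3 libraries per group. Edn1 and Adm overlap between the groups, Ace and Ramp2 do not overlap but lie close at 1 pair of libraries each, and Ackr3, Klf2 and Klf4 are clearly apart.

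Counted together, 0 of the 8 genes tested had an adjusted p of at most 0.05 in edgeR, whereas 2.34% of all genes tested did. With a fold threshold added, 1 on the log2 scale in either direction, the counts were 0 of 8 and 0.486% of all genes. At an unadjusted p of at most 0.05 there were 3, Ednrb, Ace and Ramp2, all higher in Hcy, against 13.4% of all genes. DESeq2 passed 2, Ace and Ramp2, and 4.19% of all genes. In 2 of the 8 the groups did not overlap, against 20.1% of all genes. The median log2 fold change of the 8 was 0.09, and that of all 14603 genes tested was -0.02. The intervals of Edn1, Ece1, Adm, Calcrl and Ramp3 lay within 0.39 of 0 on the log2 scale. Among endothelial markers, Vwf had a log2 fold change of 0.36 and Slc2a1 one of -0.32 (adjusted p = 0.0932 and 0.0536 from edgeR), and their part in the levels of Ace and Ramp2 was not tested.

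**Figure D3:**
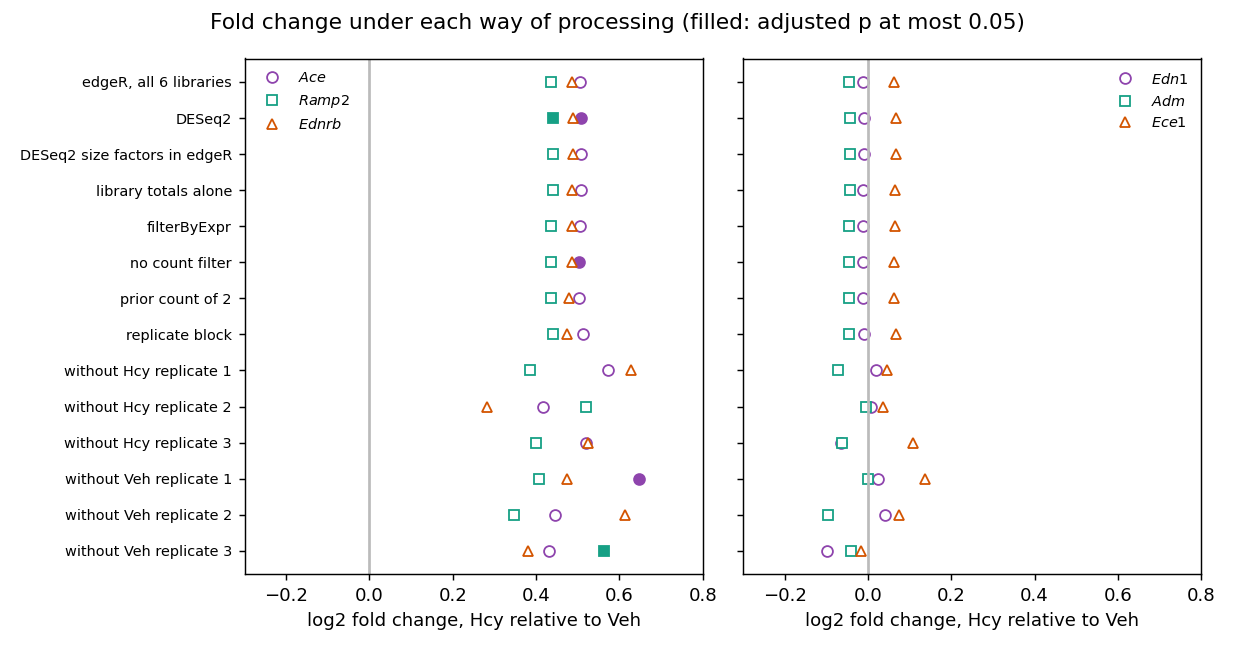
Log2 fold change of 6 genes, Hcy relative to Veh, under each way of processing, with filled symbols where the adjusted p was at most 0.05. Ace, Ramp2 and Ednrb stay above 0 throughout and Edn1, Adm and Ece1 lie around 0, while Ace is filled in 3 and Ramp2 in 2 of the 13 alternatives.

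Ratios within a library compared members within and between the systems, again per kilobase. The Ramp2 level was 20.3, 13.4 and 16.8 times that of Calcrl in Hcy and 10.5, 8.98 and 14.2 times in Veh, with overlap (exact two-sided permutation p = 0.20). Ramp2 made up 80.6 ± 2.12% (SD, n = 3) of the sum of Ramp2 and Ramp3 in Hcy and 77.0 ± 1.53% (SD, n = 3) in Veh (exact permutation p = 0.10). Hcy replicate 2, at 78.2%, and Veh replicate 1, at 78.0%, nearly met. The Ece1 level was 8.76 ± 0.967 times that of Ace (SD, n = 3) in Hcy and 11.9 ± 1.07 times in Veh (SD, n = 3), with no overlap (exact permutation p = 0.10). Edn1 was 1.39 ± 0.0962 times Adm (SD, n = 3) in Hcy and 1.37 ± 0.194 times in Veh (SD, n = 3, exact permutation p = 0.90). With 3 libraries against 3 the smallest p possible is 0.10, and after adjustment over the 4 ratios the smallest was 0.20.

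Edn1, Adm and Calcrl were also set beside 11787 genes with a mean of at least 1 CPM. Likeness was the root mean square difference of log2 CPM, each gene centred on its mean over the 6 libraries. Closest to Edn1 were Daam1 (0.015), Nploc4 (0.025) and Rsbn1l (0.028). Closest to Adm were Tcf7l1 (0.015), Yrdc (0.017) and Vps53 (0.020), and closest to Calcrl were Elf1 (0.032), Foxn2 (0.036) and Rspry1 (0.037). The adjusted p of these 9 genes lay above 0.6 in edgeR. That follows from how they were picked, since Edn1, Adm and Calcrl themselves differed little between the groups. Their likeness describes 6 libraries only.

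The other genes of these systems were listed by function. Of 77 listed, 75 had a row and 55 were tested, and 1 rose and 2 fell at an adjusted p of at most 0.05 in edgeR, which 2.34% of all genes reached. The median log2 fold change of the 55 was 0.06. None passed both the adjusted p and the fold threshold in edgeR, against 0.486% of all genes. At an unadjusted p of at most 0.05, 8 were higher and 3 lower in Hcy, against 13.4% of all genes. Groups without overlap were found for 13 higher and 5 lower in Hcy, against 20.1% of all genes. With DESeq2, 6 of them passed the adjusted p, against 4.19% of all genes, and 1, Aplnr, also passed the fold threshold, against 0.644% of all genes.

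Apart from Mme, the further endothelin genes were nearly silent in these cells. Of 7 listed, 2 were tested and 0 passed in edgeR or DESeq2, with 0 at an unadjusted p of at most 0.05, where the shares of all genes were 2.34%, 4.19% and 13.4%. Edn2 had 0 reads in all libraries and Edn3 had 1 read in all. The most abundant per kilobase was Mme, encoding neprilysin, which degrades endothelin and other peptides. It was at 2.68 ± 0.454 CPM (SD) in Hcy against 2.88 ± 0.134 CPM in Veh (n = 3 per group) (log2 fold change -0.10, adjusted p = 0.903).

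The renin-angiotensin and kinin list also held the apelin genes Apln, Aplnr and Apela. Of its 25 genes, 23 had a row, 15 were tested and 0 passed in edgeR, which passed 2.34% of all genes. DESeq2 passed Aplnr and Prcp, where it passed 4.19% of all genes. An unadjusted p of at most 0.05 was found for 6, all higher in Hcy and with Apln and Aplnr among them, and for 13.4% of all genes. The angiotensin receptor gene Agtr1a had 10 to 32 reads per library, the precursor gene Agt 0 to 12, and Agtr2 0. The most abundant was Apln, the ligand of the apelin receptor. It had 5083, 4998 and 4981 CPM in Hcy and 4486, 4412 and 4508 CPM in Veh, with no overlap. For Apln, the log2 difference was 0.17 (standard error 0.05, adjusted p = 0.191 from edgeR, and 0.0342 without Veh replicate 3). Aplnr, Prcp and Bdkrb2 were picked after their values were seen. Aplnr, the apelin receptor gene, had 30, 31 and 39 reads in Hcy and 5, 18 and 11 reads in Veh, so Hcy was higher by 1.57 log2 units (adjusted p = 0.111 from edgeR and 0.0353 from DESeq2). Prcp, a lysosomal enzyme that cleaves angiotensin II, was at 192 ± 1.37 CPM (SD) in Hcy against 156 ± 6.42 CPM in Veh (n = 3 per group) (adjusted p = 0.0547 from edgeR, 0.0167 in it without Veh replicate 3, 0.0455 with the stricter filterByExpr count filter, and 0.00530 from DESeq2). Bdkrb2, the receptor for bradykinin, differed by 0.43 log2 units (adjusted p = 0.167 from edgeR).

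Among 10 listed genes of the adrenomedullin and CGRP system, 7 were tested and 1, Ackr3, rose, where 2.34% of all genes passed. Ackr3 encodes an atypical receptor that takes up the chemokine CXCL12 and also adrenomedullin. It had 110, 112 and 115 CPM in Hcy replicates 1 to 3 and 81.1, 75.6 and 66.4 CPM in Veh replicates 1 to 3, and the groups were well apart. The mean of Ackr3 was 112 ± 2.43 CPM (SD) in Hcy against 74.4 ± 7.39 CPM in Veh (n = 3 per group). edgeR put the difference at 0.59 log2 units (standard error 0.09, adjusted p = 0.0117 from edgeR). Ackr3 kept an adjusted p of at most 0.05 without Veh replicate 1 or 3, and had adjusted p of 0.0597, 0.0591 and 0.0799 without Hcy replicates 1, 2 and 3 and 0.0502 without Veh replicate 2. Pam, the enzyme that amidates adrenomedullin, was abundant, at 784 ± 24.1 CPM (SD) in Hcy against 725 ± 59.4 CPM in Veh (n = 3 per group) (adjusted p = 0.588). Calca, Calcb and Calcr had 0 reads in all libraries.

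Of 35 genes for receptor coupling and vasomotor control, 31 were tested, 0 rose and 2 fell, Klf2 and Klf4, where 2.34% of all genes passed. At an unadjusted p of at most 0.05 there were 3, all lower, and DESeq2 passed 3, Gata2 in addition, against 13.4% and 4.19% of all genes. Both encode Kruppel-like transcription factors of quiescent, flow-exposed endothelium, and KLF2 is known to repress Edn1 and to induce Nos3. Klf4 had 16.5, 19.5 and 21.6 CPM in Hcy and 38.5, 37.0 and 36.3 CPM in Veh, and every Hcy library lay far below every Veh library. For Klf4, the log2 difference was -0.95 (standard error 0.11, adjusted p = 0.00415 from edgeR), and it passed the adjusted p in all 13 alternatives. Klf2 had 38.1, 35.9 and 37.1 CPM in Hcy and 56.4, 49.4 and 53.7 CPM in Veh, again with no overlap. For Klf2, the log2 difference was -0.52 (standard error 0.08, adjusted p = 0.0129 from edgeR). Its adjusted p was 0.0660, 0.0695 and 0.0825 without Hcy replicates 1, 2 and 3 and 0.0584 without Veh replicate 1.

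**Figure D4:**
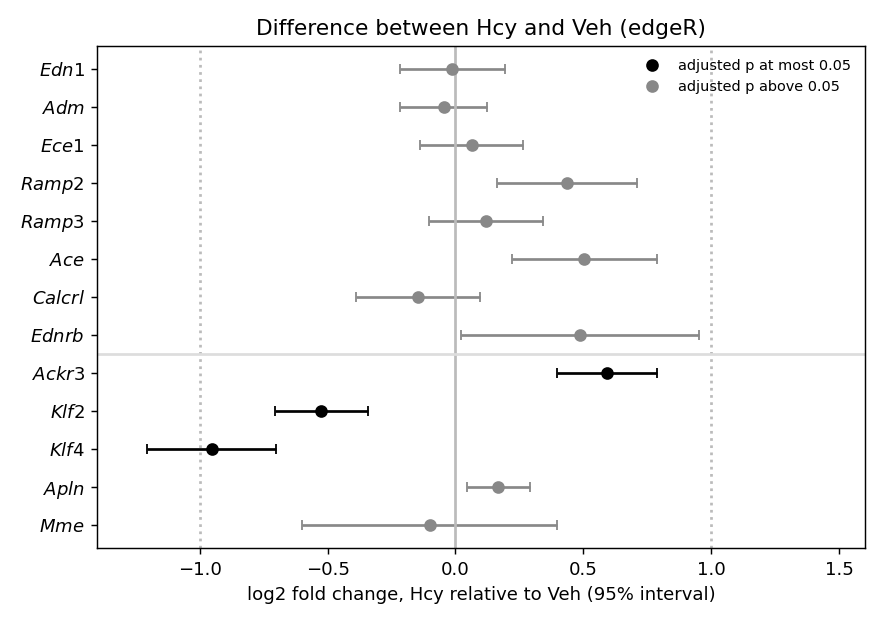
Log2 fold change, Hcy relative to Veh, with its unadjusted 95% interval from edgeR, for 8 genes of the endothelin, angiotensin and adrenomedullin group (above the line) and 5 named genes of the same pathways (below it). Dotted lines mark the fold threshold, and Ackr3 at 0.59, Klf2 at -0.52 and Klf4 at -0.95 are drawn in black for an adjusted p of at most 0.05.

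Edn1 and Nos3 are only examples of genes that KLF2 is known to act on, and its other targets were not collected. Edn1 had the log2 fold change of -0.01 given above. Nos3, the endothelial nitric oxide synthase, had one of -0.11 (standard error 0.06, adjusted p = 0.532 from edgeR). Nos3 was at 715 ± 12.2 CPM (SD) in Hcy against 770 ± 35.3 CPM in Veh (n = 3 per group). It was lower in each Hcy library than in each Veh library, but 20.1% of all genes tested had groups without overlap. Gata2, picked after its values were seen, encodes a factor known to bind the Edn1 promoter. It was at 32.0 ± 3.25 CPM (SD) in Hcy against 42.4 ± 0.659 CPM in Veh (n = 3 per group), giving a log2 difference of -0.41 (adjusted p = 0.0605 from edgeR, 0.0184 from DESeq2, 0.0407 with no count filter and 0.0230 without Veh replicate 3). The difference between these fold changes and that of Edn1 was not tested. Beside Klf2 and Klf4, the contractile genes Cnn1, Tagln and Acta2 fell, with log2 fold changes of -1.39, -0.88 and -0.64 (adjusted p = 0.00177, 0.000801 and 0.0248 from edgeR), whereas Pdgfrb, Cspg4 and Rgs5 had values of 0.73, 1.66 and 1.26 (adjusted p = 0.443, 0.188 and 0.464) and Kcnj8 one of -0.99 (adjusted p = 0.46). Their part in the result was not tested.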

How the data were processed

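The deposited table holds counts of reads per gene in 6 libraries, made by the authors without normalization, with gene length in bases. The submitters' processing notes name HISAT2 2.2.1 and featureCounts 2.0.6, with no strand setting given in the sources used here. A second deposited table holds the authors' own normalized values, fold changes and p-values and was not used.

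Rows with 10 or more reads in all 6 libraries together were kept, scaled with TMM and compared by edgeR's quasi-likelihood test, with treatment as the only term and Benjamini-Hochberg adjustment over all 14603 genes (R 4.3.3, edgeR 4.0.16). Standard errors came from the fold change and its F statistic. Calls used an adjusted p of at most 0.05, and separately a log2 fold change of 1 or more in size. For a symbol with more than 1 row, the row with most reads was used. Code was tested on simulated data.

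Genes and lists were chosen with earlier results of these data known. Named were all 9 genes, listed genes passing the adjusted p (otherwise the most abundant per kilobase), and the 3 genes most like Edn1, Adm and Calcrl. Other listed genes, among them Pam, Nos3, Agtr1a, Agt, Aplnr, Prcp, Bdkrb2 and Gata2, and the cell type markers were picked outside this rule, after their values were seen. Alternatives were DESeq2 1.42.0, its size factors, library totals, other count filters, a prior count of 2, a replicate block and leaving out each library. Depth was 14024997 to 16764584 reads.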

Additional observations from a re-analysis of the deposited data

How the results depend on the processing

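The count of endothelin, angiotensin and adrenomedullin genes passing the adjusted p, 0 in edgeR, was 2 with DESeq2 (Ace and Ramp2) and 1 with no count filter (Ace), and between 0 and 1 with each library left out. No alternative called 1 of them with the fold threshold. The count of related pathway genes passing, 3, was 6 with DESeq2, 4 with filterByExpr (Prcp added), 4 with no count filter (Gata2 added) and between 1 and 6 with each library left out, lowest without any 1 of the Hcy replicates and highest without Veh replicate 3. With the fold threshold it was 0, but 1 with DESeq2 (Aplnr) and between 0 and 1 with a library left out (Klf4 without Hcy replicate 3). The cause of these shifts was not tested. Small fold changes turned sign with a library left out. The log2 fold change of Edn1 ran from -0.0977 to 0.0402 in these fits, that of Adm from -0.0968 to 0.0009, that of Ece1 from -0.0172 to 0.137 and that of Mme from -0.188 to 0.0296. Over all genes, 341 of 14603 passed the adjusted p in edgeR and 612 with DESeq2. With filterByExpr 393 of 12296 genes passed, and with no count filter 463 of 18700. With a library left out, between 80 (without Hcy replicate 1) and 957 (without Veh replicate 3) passed.

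With the replicate block, 0 of the group and 3 related genes passed, and no call changed among the 8 tested genes of the group and the 9 related genes refitted (Ackr3, Klf2, Klf4, Apln, Mme, Gata2, Prcp, Bdkrb2 and Aplnr). The deviations of same-numbered libraries correlated at -0.00868, 0.110 and 0.0484 across genes, so the numbers were not taken as pairs, and 298 of all genes passed with the block. Depth limits Ednra, which was under 3 reads in every library.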
